A study of Homo sapiens with 6 samples.

Results

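The TCL1 locus on chromosome 14 holds the genes TCL1A and TCL1B, which were described in 6 libraries of drug-resistant and labelled parental B lymphoma cells. They are 2 of 23834 genes in the tables, of which 12337 reached 1 FPKM (fragments scaled to transcript length and to the mapped fragments of the library) in at least 1 library. Both genes were chosen by measured values, namely their differences between these libraries, so their levels are given as a description without a test. PolyA RNA was sequenced from 2 lymphoma lines, with 1 library for each group and no replicate: idelalisib-resistant, ibrutinib-resistant and labelled parental (WT) DOHH2 cells, and the same 3 states of DAUDI cells. DOHH2 stands for follicular lymphoma and DAUDI for Burkitt lymphoma. Idelalisib inhibits the delta isoform of PI3K and ibrutinib inhibits BTK, kinases that act below the B cell receptor. The labels give neither the dose nor the length of the selection, nor whether a resistant culture was a single clone, and none of the groups is stated to differ in an engineered allele.

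Proteins of the TCL1 family bind the pleckstrin homology domain of the kinase AKT and raise its activity, and are therefore called AKT coactivators. TCL1A is normally made in precursor, naive and some germinal centre B cells and is shut off in memory and plasma cells, and many B lymphomas keep it. TCL1B is its neighbour and paralog, TCL6 is a non-coding gene of the same cluster, and MTCP1 on the X chromosome is the other family member. Translocations that bring T cell receptor genes next to this cluster are the hallmark of T-cell prolymphocytic leukaemia.

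The labelled parental libraries did not group with their lines, which touches every comparison with a labelled parental library. Over 12186 genes the labelled parental DOHH2 and DAUDI libraries correlated at r = 0.991 on log2(FPKM + 1), while each resistant library correlated with the labelled parental library of its own line at only 0.722 to 0.737. The resistant libraries did group by line. Those of DOHH2 correlated with each other at 0.992 and those of DAUDI at 0.98, while resistant DOHH2 and resistant DAUDI libraries correlated at 0.838 to 0.856. These are correlations across genes, which are not independent. Whether a difference from a labelled parental library belongs to resistance or to the identity of that library cannot be told apart. B cell markers were at 1 FPKM or more for 6 of 6 genes in every library, with sums of 914 to 1570 FPKM. Of 8 T and NK cell markers, CD3D was at 0 in all libraries and the sum was 1.48 to 7.64 FPKM. Myeloid markers summed to 22.2 and 17.1 FPKM in idelalisib- and ibrutinib-resistant DAUDI, and to at most 0.500 FPKM in the other libraries. Stromal and epithelial markers summed to 0.193 to 2.75 FPKM and erythroid markers to 0 to 5.46 FPKM, highest in labelled parental DOHH2. The part of these markers in the results was not tested.

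The promoters of both genes are shown because the RNA of both was at or near 0 together in resistant DOHH2. They run from 250 bases before to 50 bases after the start site, as RefSeq gives it on GRCh38.p14, each on its own gene's strand. TCL1A lies at chr14:95714076-95714375 on the minus strand and TCL1B at chr14:95686176-95686475 on the plus strand, so the genes point towards each other. Capitals mark exact matches on either strand to the motifs searched.
TCL1A: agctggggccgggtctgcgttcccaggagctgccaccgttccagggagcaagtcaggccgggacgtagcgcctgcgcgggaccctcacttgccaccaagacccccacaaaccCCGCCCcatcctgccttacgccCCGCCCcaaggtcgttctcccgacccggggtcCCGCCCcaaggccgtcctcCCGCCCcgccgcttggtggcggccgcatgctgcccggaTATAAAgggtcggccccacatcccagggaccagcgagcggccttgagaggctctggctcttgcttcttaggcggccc
TCL1B: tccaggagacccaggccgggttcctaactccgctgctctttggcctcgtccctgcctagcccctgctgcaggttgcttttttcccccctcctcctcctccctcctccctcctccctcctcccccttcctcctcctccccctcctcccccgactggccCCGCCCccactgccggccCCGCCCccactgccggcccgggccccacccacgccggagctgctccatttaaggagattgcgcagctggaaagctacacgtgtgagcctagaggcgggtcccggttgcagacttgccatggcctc
The TCL1A window holds the TATA box core TATAAA, whose first base is 27 bases before the start site, and 4 copies of the SP1 box GGGCGG, read as CCGCCC on this strand, at 138, 116, 84 and 65 bases before it. The TCL1B window holds 2 SP1 boxes, at 93 and 75 bases before its start site, and no TATAAA. Of 35116 promoters of the same length, 11.5% hold TATAAA and 45% hold an SP1 box, with 3 or more SP1 boxes in 15.8%. Neither window matched the NR4A1-binding motif AAAGGTCA, the CREB-binding motif TGACG or the E-box CAGGTG, which 1.22%, 24.6% and 20.6% of promoters hold. None of these matches overlapped another. TCL1A has 26 CpG sites and 70.7% G and C in this window and TCL1B has 15 and 68.7%, beside medians of 14 and 58.7% over all promoters. The deposited tables hold RNA levels only, so a match describes the sequence and shows no binding.

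TCL1A was among the most abundant transcripts of 4 libraries and at or near 0 in both resistant DOHH2 libraries. Its level was 0.0494 FPKM in idelalisib-resistant DOHH2 and was listed at 0 in ibrutinib-resistant DOHH2, against 390 FPKM in labelled parental DOHH2. It was 282 FPKM in idelalisib-resistant DAUDI and 320 FPKM in ibrutinib-resistant DAUDI, against 344 FPKM in labelled parental DAUDI. The order was therefore labelled parental DOHH2, labelled parental DAUDI, ibrutinib-resistant DAUDI, idelalisib-resistant DAUDI and then, far below, both resistant DOHH2 libraries. Ranked by FPKM, TCL1A was gene number 113 in labelled parental DOHH2, and in DAUDI it was number 143 in idelalisib-resistant, 134 in ibrutinib-resistant and 119 in labelled parental cells. Between 10279 and 10687 genes reached 1 FPKM in a library.

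On the log2(FPKM + 1) scale, which understates the change of genes with low values, TCL1A was lower by 8.54 in idelalisib-resistant DOHH2 and by 8.61 in ibrutinib-resistant DOHH2 than in the labelled parental library. In DAUDI the difference was -0.28 for idelalisib-resistant and -0.10 for ibrutinib-resistant cells, short of the size of 1 at which a gene was called. A difference of 1 or more downwards was found in 15.7% of genes in idelalisib-resistant and 15.7% in ibrutinib-resistant DOHH2, and in 15.8% and 14.6% of genes in idelalisib- and ibrutinib-resistant DAUDI. These differences entered the choice of the genes, so nothing is read from the comparison with all genes.

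TCL1B, the paralog, was low in all 4 resistant libraries and differed between the lines in how low it was. It was listed at 0 in idelalisib-resistant DOHH2 and at 0.0633 FPKM in ibrutinib-resistant DOHH2, against 352 FPKM in labelled parental DOHH2. It was 5.58 FPKM in idelalisib-resistant DAUDI and 6.38 FPKM in ibrutinib-resistant DAUDI, against 343 FPKM in labelled parental DAUDI. The resistant DAUDI libraries thus kept a low level that the resistant DOHH2 libraries lacked. On the log2(FPKM + 1) scale the differences from labelled parental were -8.46 and -8.37 in idelalisib- and ibrutinib-resistant DOHH2 and -5.71 and -5.54 in idelalisib- and ibrutinib-resistant DAUDI. The DAUDI values correspond to FPKM that were 61.5-fold lower in idelalisib-resistant and 53.7-fold lower in ibrutinib-resistant cells. TCL1B ranked 7026 and 6995 in those libraries, against 120 in labelled parental DAUDI.

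**Figure D1:**
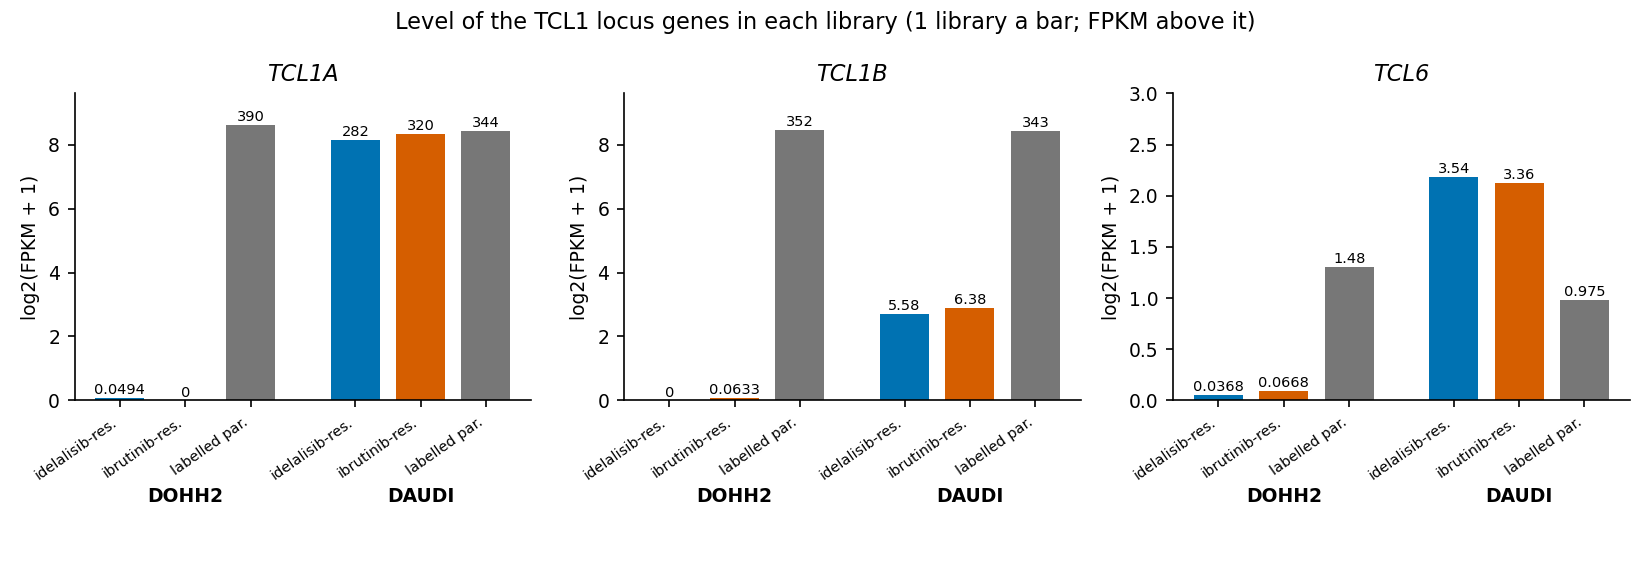
Level of TCL1A, TCL1B and TCL6 as log2(FPKM + 1) in each of 6 libraries, 1 library a bar with no error, with FPKM printed above the bar; the axis of TCL6 is shorter, "res." is resistant and "labelled par." is labelled parental. TCL1A is at 282 to 390 FPKM in 4 libraries and at most 0.0494 in resistant DOHH2; TCL1B is high in the labelled parental libraries only, and TCL6 is highest in resistant DAUDI.

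By deposited FPKM the 2 genes were thus almost balanced in the labelled parental cells and far apart in resistant DAUDI. The near balance rests on TCL1B values above their own deposited bounds, 270 to 284 in labelled parental DOHH2 and 267 to 280 in labelled parental DAUDI. The TCL1A isoforms lay within their bounds there. TCL1B amounted to 1.98% of the TCL1A level in idelalisib-resistant DAUDI and 2.0% in ibrutinib-resistant DAUDI, against 99.9% in labelled parental DAUDI and 90.1% in labelled parental DOHH2, per length in each case. Over the 6 libraries the levels of TCL1A and TCL1B correlated at r = 0.771 on log2(FPKM + 1). This is a description of 6 libraries that fall into separate clusters and share their line or their label.

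Coverage, the second measure the tables hold, showed the same pattern and is not scaled to library size. The coverage of TCL1A, summed over its isoforms, was 0.264 and 0 in idelalisib- and ibrutinib-resistant DOHH2, against 2051 in labelled parental DOHH2. It was 1509 and 2336 in idelalisib- and ibrutinib-resistant DAUDI, against 1844 in labelled parental DAUDI. The higher coverage of ibrutinib-resistant DAUDI stood beside a higher coverage per FPKM, 7.30 for TCL1A there and 5.26 to 5.37 in the other libraries with TCL1A above 1 FPKM. Library medians over isoforms of 300 nt or more at 10 FPKM or more were 5.0 to 7.59. TCL1B coverage was 0 and 0.243 in idelalisib- and ibrutinib-resistant DOHH2, against 1854 in labelled parental DOHH2. It was 30.8 and 47.3 in idelalisib- and ibrutinib-resistant DAUDI, against 1846 in labelled parental DAUDI. Covered bases (coverage times isoform length) of TCL1A came to 367 in idelalisib-resistant DOHH2, and those of TCL1B to 283 in ibrutinib-resistant DOHH2. Without read counts the depth is unknown, so a value listed at 0 sets no upper limit, and whether fewer cells or less RNA per cell lay behind a low value cannot be told apart.

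The 2 drugs gave nearly the same levels within a line. Ibrutinib-resistant minus idelalisib-resistant, TCL1A differed by -0.07 in DOHH2 and 0.18 in DAUDI, and TCL1B by 0.09 in DOHH2 and 0.17 in DAUDI. In DOHH2 both genes were at or near 0, where the 1 added to FPKM keeps differences small. With 0.1 added instead, the DOHH2 differences were -0.58 for TCL1A and 0.71 for TCL1B. Among genes with a mean of 100 FPKM or more, the median absolute difference between these libraries was 0.101 in DOHH2 (366 genes) and 0.233 in DAUDI (421 genes). The central 95% of these DAUDI genes lay between -0.40 and 0.95. Genes this abundant are a yardstick only for TCL1A in DAUDI, since TCL1B there and both genes in DOHH2 were far lower. The median over all genes was itself 0.14 in DAUDI, so the DAUDI differences of both genes lay close to the general shift between these libraries, and their sign turned when libraries were rescaled by the upper quartile (-0.03 for TCL1A, -0.02 for TCL1B). A difference of 1 or more in either direction was found in 1.08% of genes in DOHH2 and 3.5% in DAUDI.

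The labelled parental libraries of the 2 lines carried like amounts of both transcripts. Labelled parental DOHH2 minus labelled parental DAUDI, TCL1A differed by 0.18 and TCL1B by 0.04. Among 368 genes with a mean of 100 FPKM or more the central 95% lay between -0.28 and 0.48, and 1.09% of all genes differed by 1 or more. Between the resistant libraries of the lines the picture was another one: resistant DOHH2 minus resistant DAUDI, the mean differed by -8.20 for TCL1A and -2.76 for TCL1B. Both genes were chosen by their differences between these libraries, so this contrast was not tested.

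TCL1A RNA was split between 2 main isoforms of nearly equal length, and the split in resistant DAUDI differed from that in the labelled parental cells. NM_001098725 (1391 nt) made up 52.5% of the TCL1A level in idelalisib-resistant DAUDI and 50.2% in ibrutinib-resistant DAUDI, against 64.8% in labelled parental DAUDI and 67.2% in labelled parental DOHH2. NM_021966 (1396 nt) made up 46.0% in idelalisib-resistant DAUDI and 48.5% in ibrutinib-resistant DAUDI, against 34.1% in labelled parental DAUDI and 31.7% in labelled parental DOHH2. The non-coding NR_049726 (1620 nt) stayed between 1.09% and 1.51% in those 4 libraries, which is 3.78 to 4.26 FPKM. In FPKM, NM_001098725 was 148 and 161 in idelalisib- and ibrutinib-resistant DAUDI, against 223 in labelled parental DAUDI, while NM_021966 was 130 and 155 in idelalisib- and ibrutinib-resistant DAUDI, against 117 in labelled parental DAUDI. The shift was thus seen in both resistant DAUDI libraries, with 1 library each and no replicate. The split is the deposited estimate, and how many reads told the 2 main isoforms apart is unknown. TCL1B has 1 isoform in the tables, NM_004918 (1166 nt).

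**Figure D2:**
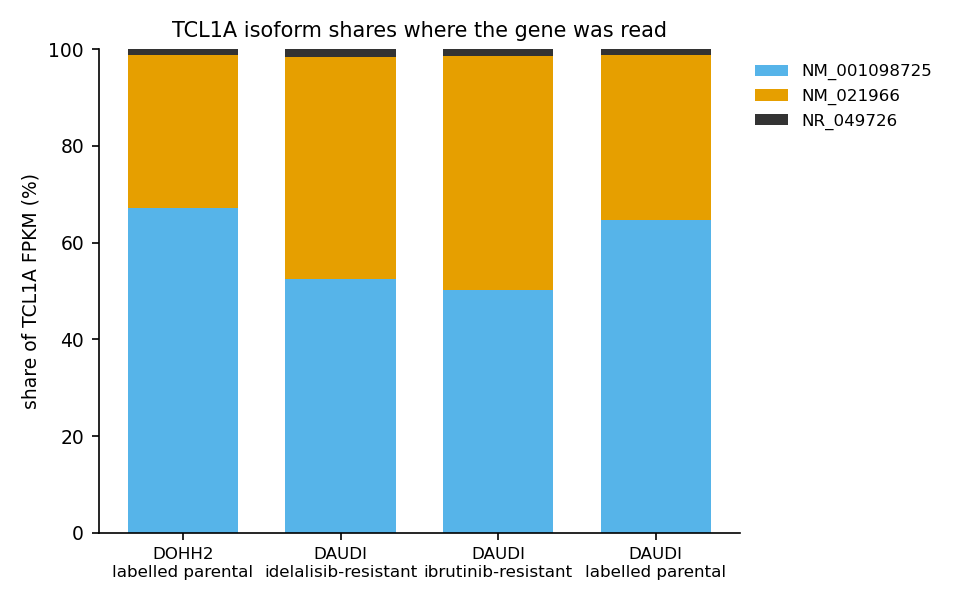
Share of each TCL1A isoform in the TCL1A FPKM (percent, vertical axis) in the 4 libraries where the gene exceeded 10 FPKM, 1 library a bar with no error. NM_001098725 makes up 50.2% to 52.5% in resistant DAUDI and 64.8% to 67.2% in the labelled parental libraries.

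The transcripts of the 2 genes share little exact sequence. The longest stretch that any of 9 TCL1A transcripts shares with any of 3 TCL1B transcripts in GENCODE release 29 is 16 nt. The FPKM of TCL1B lies outside its own deposited bounds in 3 libraries, namely ibrutinib-resistant DAUDI (bounds 4.58 to 6.11), labelled parental DAUDI (267 to 280) and labelled parental DOHH2 (270 to 284). The tables were kept as deposited, and the midpoint of the bounds is among the alternatives. GENCODE places an antisense gene, AL139020.1, over TCL1A and a further transcript, AL133467.3, over TCL1B on the same strand. The library kit keeps the strand, but no source used here says whether the quantification used it.

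None of the other family genes reached the level of TCL1A and TCL1B in the labelled parental libraries, although CMC4 exceeded TCL1B in all 4 resistant libraries. TCL6, the non-coding gene of the cluster, was at 0.0368 and 0.0668 FPKM in idelalisib- and ibrutinib-resistant DOHH2, against 1.48 FPKM in labelled parental DOHH2. In DAUDI it went the other way, with 3.54 and 3.36 FPKM in idelalisib- and ibrutinib-resistant cells, against 0.9747 FPKM in labelled parental cells. Relative to labelled parental its log2(FPKM + 1) differed by -1.26 and -1.22 in idelalisib- and ibrutinib-resistant DOHH2 and by 1.20 and 1.14 in idelalisib- and ibrutinib-resistant DAUDI. TCL6 was lower in resistant DOHH2 than in resistant DAUDI by limma across 11523 genes with Benjamini-Hochberg adjustment (difference -2.08, SE 0.14, adjusted p = 0.00127, n = 2 libraries each). The difference lay between -2.11 and -2.05 in the fits that left out 1 library. Among the resistant libraries TCL6 reached 1 FPKM in DAUDI only, so it could be called lower alone and this call supports nothing. The limma test calls 17.1% of genes lower and 15.4% higher in resistant DOHH2, taking the 2 drugs of a line as its replicates.

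MTCP1, the X-linked relative, was at 0.345 and 0.157 FPKM in idelalisib- and ibrutinib-resistant DOHH2, against 1.02 FPKM in labelled parental DOHH2. It was 0.510 and 0.612 FPKM in idelalisib- and ibrutinib-resistant DAUDI, against 0.883 FPKM in labelled parental DAUDI. It stayed near or below 1 FPKM everywhere. CMC4, a gene for a small mitochondrial protein that shares its first exon with MTCP1, was at 14.03 and 13.57 FPKM in idelalisib- and ibrutinib-resistant DOHH2, against 4.45 FPKM in labelled parental DOHH2. It was 7.38 and 10.96 FPKM in idelalisib- and ibrutinib-resistant DAUDI, against 5.47 FPKM in labelled parental DAUDI. Its difference of 0.56 between resistant DOHH2 and resistant DAUDI did not pass (limma, SE 0.21, adjusted p = 0.102), but passed after rescaling by the median of ratios or by the upper quartile, and without ibrutinib-resistant DAUDI, and over all alternatives the adjusted p was 0.0349 to 0.384. The split of reads between MTCP1 and CMC4 is uncertain because of the shared exon.

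In hg19, the build of the tables, TCL6 lies at chr14:96117515-96139789 on the plus strand, TCL1B at chr14:96152754-96158980 on the plus strand and TCL1A at chr14:96176304-96180533 on the minus strand. TCL1B ends 17.3 kb before TCL1A, and TCL6 ends 13.0 kb before TCL1B. The 3 genes of the cluster were all lower in resistant DOHH2 than in labelled parental DOHH2, but in resistant DAUDI they differed: TCL1A near its labelled parental level, TCL1B far below it and TCL6 above it.

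Within 1 Mb of TCL1A the tables hold 21 genes, of which 17 reached 1 FPKM, both TCL1 genes included. Of the 17, 7 were lower by 1 or more in both resistant DOHH2 libraries, namely CLMN, LINC00341, SYNE3, TCL6, TCL1B, TCL1A and AK7, of which TCL1A and TCL1B were chosen for this difference. In both resistant DAUDI libraries 3 were lower, namely CLMN, TCL1B and AK7. Over all genes the shares lower by 1 or more were 15.7% in each resistant DOHH2 library, and 15.8% and 14.6% in idelalisib- and ibrutinib-resistant DAUDI. These are shares for single libraries. The shares of all genes lower, or higher, in both resistant libraries of a line were not counted. Higher in both libraries were 1 gene in resistant DOHH2 (BDKRB2) and 2 genes in resistant DAUDI (SNHG10 and TCL6). A difference of 1 or more upwards was found in 16% and 14.9% of all genes in idelalisib- and ibrutinib-resistant DOHH2 and in 15.3% and 20.2% in idelalisib- and ibrutinib-resistant DAUDI. For ibrutinib-resistant DAUDI this is 2497 genes higher and 1804 lower, which became 1899 higher and 2214 lower after rescaling by the median of ratios.

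The low values were not continuous along the chromosome. CLMN, which encodes the actin-binding protein calmin, was at 0 and 0.00234 FPKM in idelalisib- and ibrutinib-resistant DOHH2, against 9.44 FPKM in labelled parental DOHH2, and at 0.133 and 0.132 FPKM in idelalisib- and ibrutinib-resistant DAUDI, against 6.93 FPKM in labelled parental DAUDI. SYNE3, for a nesprin of the nuclear envelope, was at 0.595 and 0.819 FPKM in idelalisib- and ibrutinib-resistant DOHH2, against 6.61 FPKM in labelled parental DOHH2, but at 3.51 and 6.81 FPKM in idelalisib- and ibrutinib-resistant DAUDI, against 6.61 FPKM in labelled parental DAUDI. LINC00341, next to SYNE3, was at 0.502 and 0.555 FPKM in idelalisib- and ibrutinib-resistant DOHH2, against 9.66 FPKM in labelled parental DOHH2, and at 5.17 and 10.4 FPKM in idelalisib- and ibrutinib-resistant DAUDI, against 9.003 FPKM in labelled parental DAUDI. So SYNE3 and LINC00341 were low in the same 2 libraries as TCL1A, and CLMN in the same 4 as TCL1B.

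Between SYNE3 and the cluster lie genes that stayed on. GLRX5, for a mitochondrial glutaredoxin of iron-sulfur cluster assembly, was at 23.7 and 23.6 FPKM in idelalisib- and ibrutinib-resistant DOHH2, against 25.7 FPKM in labelled parental DOHH2. It was 48.3 and 49.2 FPKM in idelalisib- and ibrutinib-resistant DAUDI, against 30.4 FPKM in labelled parental DAUDI. SNHG10, a host gene of small RNAs, was at 4.34 and 4.80 FPKM in idelalisib- and ibrutinib-resistant DOHH2, against 1.93 FPKM in labelled parental DOHH2. It was 6.37 and 5.53 FPKM in idelalisib- and ibrutinib-resistant DAUDI, against 1.79 FPKM in labelled parental DAUDI. Neither gene was lower by 1 or more in any resistant library. Farther out, DICER1, the enzyme that cuts miRNA precursors, was at 7.27 to 10.9 FPKM over the 6 libraries and PAPOLA, the poly(A) polymerase, at 55.5 to 85.4 FPKM.

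On the other side of TCL1A the nearest gene at 1 FPKM was BDKRB2, a bradykinin receptor 510 kb away. It was at 8.15 and 1.24 FPKM in idelalisib- and ibrutinib-resistant DOHH2, was listed at 0 in labelled parental DOHH2, and did not exceed 0.0244 FPKM in DAUDI. AK7, an adenylate kinase, was at 0.0553 and 0.124 FPKM in idelalisib- and ibrutinib-resistant DOHH2, against 2.94 FPKM in labelled parental DOHH2, and at 0.0863 and 0.0631 FPKM in idelalisib- and ibrutinib-resistant DAUDI, against 2.48 FPKM in labelled parental DAUDI. ATG2B, an autophagy gene, was at 3.54 to 8.70 FPKM and GSKIP, whose protein binds GSK3, at 5.03 to 8.90 FPKM over the 6 libraries. SCARNA13 is a 275 nt RNA without a usual poly(A) tail, and its single low value in ibrutinib-resistant DAUDI (0.000182 FPKM, 6.38 to 16.3 in the others) comes from a class of RNA that polyA libraries measure poorly.

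**Figure D3:**
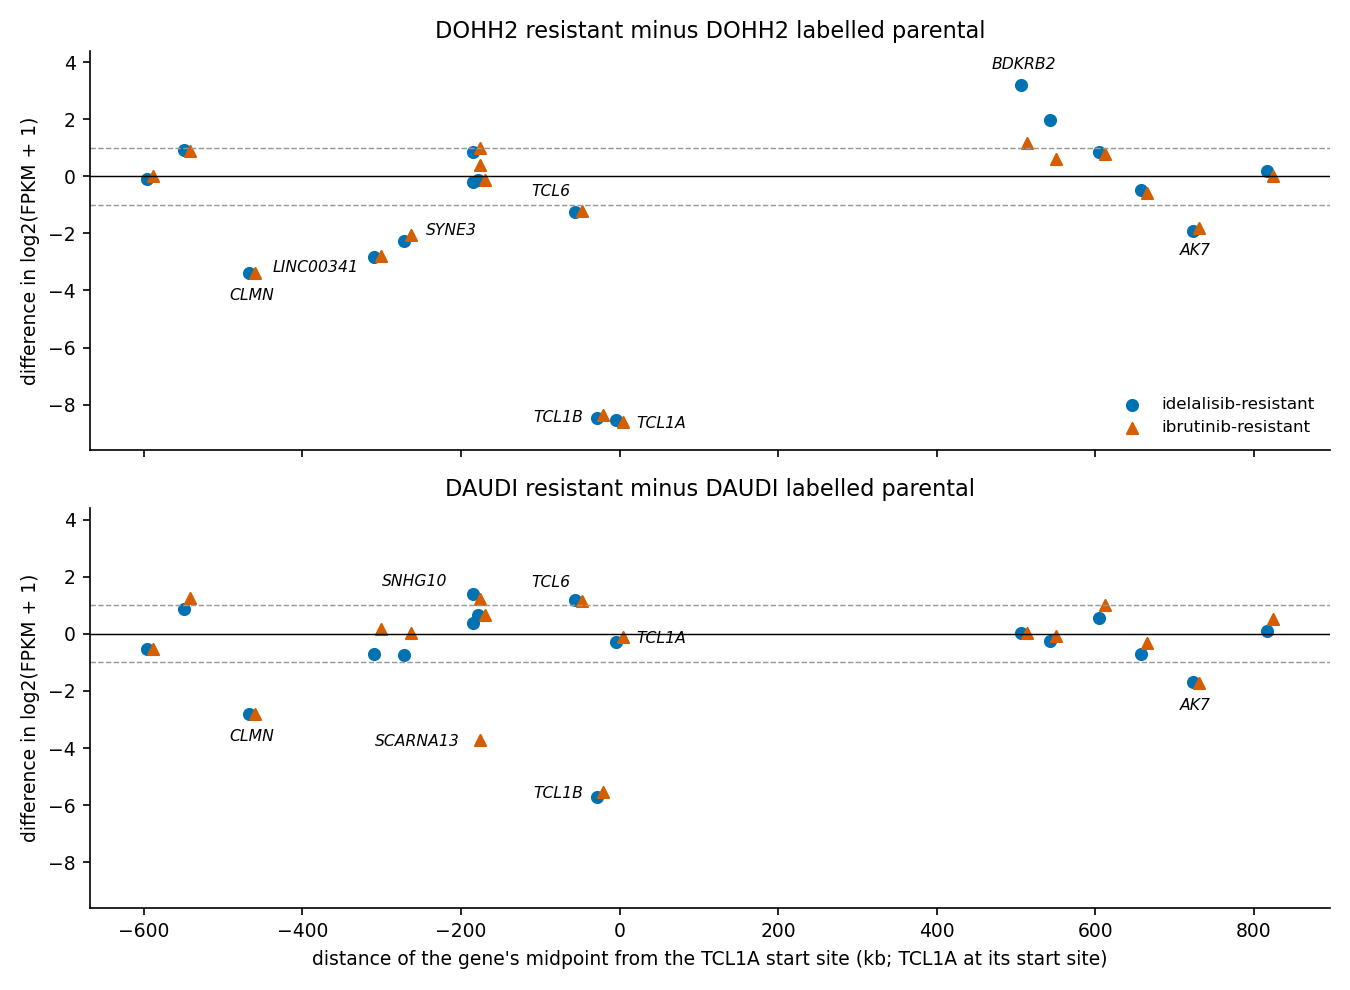
Difference in log2(FPKM + 1) of each resistant library from the labelled parental library of its line (vertical axis) for 17 genes at 1 FPKM or more within 1 Mb of TCL1A, by the distance of the gene's midpoint from the TCL1A start site in kb; dashed lines mark a difference of 1. In DOHH2, TCL1A and TCL1B lie near -8.5 with genes near 0 between them and CLMN; in DAUDI, TCL1B lies at -5.71 and -5.54 beside TCL1A at -0.28 and -0.10.

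Few genes matched the TCL1A pattern at its height. Of 5871 genes of 300 nt or more with 5 FPKM or more in labelled parental DOHH2 and the 3 DAUDI libraries, 42 were below 0.1 FPKM in both resistant DOHH2 libraries, and TCL1A alone of them was at 100 FPKM or more in the 4 libraries. These limits were chosen after the values were seen, and CRIP1 and CD48 missed only the limit of 0.1 FPKM. CRIP1 was at 0 and 0.124 FPKM in idelalisib- and ibrutinib-resistant DOHH2 and at 113 to 172 FPKM in the 4 libraries. CD48 was at 0 and 0.497 FPKM in idelalisib- and ibrutinib-resistant DOHH2 and at 113 to 175 FPKM in the 4 libraries. The pattern at this height was therefore not particular to TCL1A. By correlation over the 6 libraries among 9262 genes at 5 FPKM or more, the genes most like TCL1A were PBDC1, MINPP1, GLUL, ATL3, DNAJC15, HEBP1, SP140 and NQO2, with r from 0.9995 to 0.9969. They followed its shape at lower levels, with a root mean square (RMS) distance from TCL1A of 1.85 to 3.06 log2 units after each gene was centred. GLUL, glutamine synthetase, was listed at 0 in both resistant DOHH2 libraries, against 22.0 FPKM in labelled parental DOHH2, and was at 15.1 and 18.5 FPKM in idelalisib- and ibrutinib-resistant DAUDI, against 21.7 FPKM in labelled parental DAUDI. MINPP1, an inositol polyphosphate phosphatase, was at 0.0143 and 0 FPKM in idelalisib- and ibrutinib-resistant DOHH2, against 7.96 FPKM in labelled parental DOHH2, and was at 6.13 and 7.36 FPKM in idelalisib- and ibrutinib-resistant DAUDI, against 7.75 FPKM in labelled parental DAUDI. Ranked by the RMS distance instead, none of these 8 remained, and CRIP1 (0.71) and CD48 (0.78) came first.

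The genes most like TCL1B by correlation were PTPRJ, KYNU, PIM2, CTDP1, HACL1, ZNF776, TNFAIP8 and ZNF134, with r from 0.9988 to 0.998 and RMS distances of 1.93 to 3.07. PIM2, a survival kinase of B cells that acts beside AKT, was at 49.3 and 49.8 FPKM in idelalisib- and ibrutinib-resistant DOHH2, against 256 FPKM in labelled parental DOHH2. It was 88.5 and 89.3 FPKM in idelalisib- and ibrutinib-resistant DAUDI, against 232 FPKM in labelled parental DAUDI. In both resistant DOHH2 libraries all 8 of these genes stood above TCL1B. By RMS distance none of the 8 remained, and IRF4 (0.56), a transcription factor of activated B and plasma cells, and GATM (0.60), of creatine synthesis, came first. By correlation TCL1B ranked 1155 among the genes like TCL1A. With 6 libraries in 3 tight pairs, a high r says little more than which libraries were high.

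**Figure D4:**
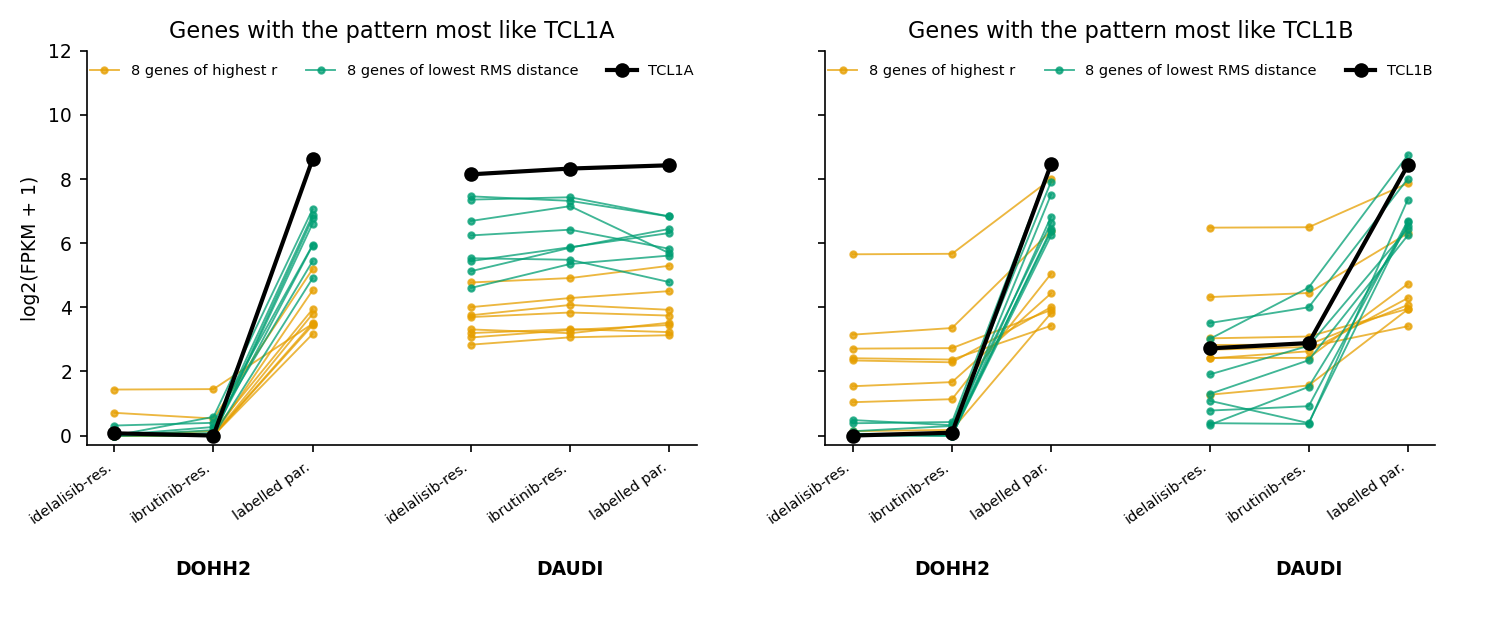
Level as log2(FPKM + 1) in the 6 libraries of TCL1A (left) and TCL1B (right), of the 8 genes of highest r with each and of the 8 genes of lowest RMS distance after centring; lines join the libraries of a line and have no order in time, "res." is resistant and "labelled par." is labelled parental. The genes of highest r lie below TCL1A by log2 units where it is high, and several of those of TCL1B stay well above it in resistant DOHH2.

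A high level in both labelled parental libraries with a low level in all 4 resistant ones was not particular to TCL1B. Of 345 genes at 100 FPKM or more in both labelled parental libraries, 10 were below 10 FPKM in all 4 resistant libraries, again by limits chosen after the values were seen. They were BCL2A1, CD44, CFLAR, GZMB, MIR4435-1HG, MNDA, SLC12A7, TCL1B, TP53I11 and VIM. GZMB, the cytotoxic protease granzyme B, was at 0.0420 and 0 FPKM in idelalisib- and ibrutinib-resistant DOHH2, against 554 FPKM in labelled parental DOHH2. It was 0.155 and 0.113 FPKM in idelalisib- and ibrutinib-resistant DAUDI, against 451 FPKM in labelled parental DAUDI. Except for TCL1B, BCL2A1, CFLAR and TP53I11, these genes were below 1 FPKM in all 4 resistant libraries.

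AKT1 and AKT2, kinases that the TCL1 proteins bind, stayed above 10 FPKM in every library, also where TCL1A was at 0. AKT1 was at 27.5 and 25.4 FPKM in idelalisib- and ibrutinib-resistant DOHH2, against 17.8 FPKM in labelled parental DOHH2, and at 26.1 and 23.6 FPKM in idelalisib- and ibrutinib-resistant DAUDI, against 21.2 FPKM in labelled parental DAUDI. AKT2 was at 12.6 and 11.3 FPKM in idelalisib- and ibrutinib-resistant DOHH2, against 20.5 FPKM in labelled parental DOHH2, and at 15.0 and 17.6 FPKM in idelalisib- and ibrutinib-resistant DAUDI, against 20.1 FPKM in labelled parental DAUDI. Resistant DOHH2 minus resistant DAUDI, AKT1 differed by 0.09 (limma, SE 0.13, adjusted p = 0.626) and AKT2 by -0.41 (limma, SE 0.15, adjusted p = 0.0958), so neither passed.

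The gene lists were chosen with earlier results of these data known and are described by their counts. Of 15 tested AKT kinases and activators, 1 was called, and was higher, in resistant DOHH2 against resistant DAUDI (limma, adjusted p below 0.05), with a median of -0.02 beside -0.06 over all genes. Of all genes tested in this fit 15.4% were called higher and 17.1% lower, the background for every list. Tested list genes that reached 1 FPKM in the resistant libraries of 1 line only could be called in 1 direction alone. These were TCL6, MAP3K5, FCER2, IRF4, CD80 and PRDM1 in DAUDI, and TBC1D4, NR4A1 and FOS in DOHH2. The gene called was PIK3AP1, a B cell adaptor that recruits PI3K, with 65.8 and 69.5 FPKM in idelalisib- and ibrutinib-resistant DOHH2 against 26.4 and 31.3 FPKM in idelalisib- and ibrutinib-resistant DAUDI (difference 1.21, SE 0.14, adjusted p = 0.00572). With pseudocount 0.1 or rescaled libraries MLST8, an mTOR complex subunit, passed as well; in the limma fits without idelalisib- or without ibrutinib-resistant DOHH2, 0 genes of this list passed, with 1 and 3 at an unadjusted p below 0.05. Relative to labelled parental, 3 of 16 measured genes of this list were lower by 1 or more in each resistant library. This stood beside 14.6% to 15.8% of all genes, so nothing is read from the count. The 3 genes were not the same in the 2 lines. PIK3CD, the target of idelalisib, was among them in every resistant library. It differed by -1.28 and -1.42 in idelalisib- and ibrutinib-resistant DOHH2 and by -1.41 and -1.21 in idelalisib- and ibrutinib-resistant DAUDI.

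Of 12 tested AKT brakes, 3 were higher and 3 lower in resistant DOHH2 than in resistant DAUDI, with a median of -0.21, beside 15.4% and 17.1% of all genes. INPP5D, the lipid phosphatase SHIP1 that acts on the product of PI3K, was at 30.3 and 34.0 FPKM in idelalisib- and ibrutinib-resistant DOHH2 and at 14.3 and 17.7 FPKM in idelalisib- and ibrutinib-resistant DAUDI (difference 0.97, SE 0.16, limma adjusted p = 0.0138). Labelled parental cells had 44.8 FPKM of INPP5D in DOHH2 and 45.4 FPKM in DAUDI. KEAP1, an adaptor of ubiquitin ligase that also senses oxidative stress, was at 15.2 and 13.9 FPKM in idelalisib- and ibrutinib-resistant DOHH2 and at 20.5 and 24.6 FPKM in idelalisib- and ibrutinib-resistant DAUDI (difference -0.60, SE 0.15, limma adjusted p = 0.0422). In the limma fits without idelalisib- or without ibrutinib-resistant DOHH2, 0 brakes passed, with 2 and 6 at an unadjusted p below 0.05, and with the drug as a block 3 passed. DEPTOR, an inhibitor of mTOR complexes, did not pass (difference -0.18, SE 0.24, limma adjusted p = 0.591). It was at 55.3 and 42.9 FPKM in idelalisib- and ibrutinib-resistant DOHH2, against 0.211 FPKM in labelled parental DOHH2. It was 46.0 and 66.3 FPKM in idelalisib- and ibrutinib-resistant DAUDI, against 0.332 FPKM in labelled parental DAUDI.

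Of 20 AKT substrates, 4 were higher (TBC1D4, CDKN1B, TBC1D1 and CHUK) and 1 lower (MAP3K5) in resistant DOHH2 than in resistant DAUDI, with a median of 0.19. TBC1D4, a Rab GTPase-activating protein of glucose transport, was at 25.9 and 22.1 FPKM in idelalisib- and ibrutinib-resistant DOHH2 and at 0.0560 and 0.113 FPKM in idelalisib- and ibrutinib-resistant DAUDI (difference 4.52, SE 0.15, limma adjusted p = 0.000409). Labelled parental cells had 1.28 FPKM in DOHH2 and 1.03 FPKM in DAUDI, so TBC1D4 was high where TCL1A was at 0. CDKN1B, the cell cycle inhibitor p27, was at 21.1 and 20.3 FPKM in idelalisib- and ibrutinib-resistant DOHH2 and at 4.23 and 7.56 FPKM in idelalisib- and ibrutinib-resistant DAUDI (difference 1.70, SE 0.26, limma adjusted p = 0.0112). MAP3K5, the stress kinase ASK1, was listed at 0 in both resistant DOHH2 libraries and was at 1.62 and 2.77 FPKM in idelalisib- and ibrutinib-resistant DAUDI (difference -1.65, SE 0.22, limma adjusted p = 0.00781). The other substrate calls did not hold in the fits without a DOHH2 library. TBC1D4 reached 1 FPKM in resistant DOHH2 only, so it could be called higher alone.

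**Figure D5:**
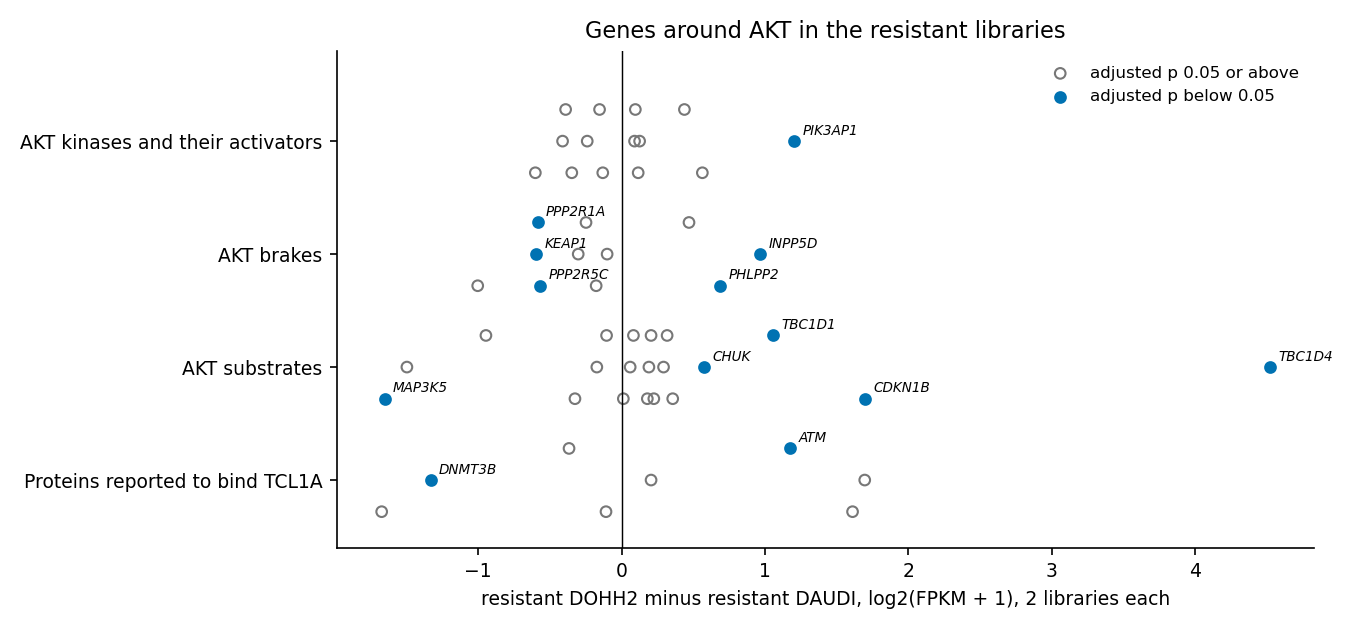
Difference between the resistant DOHH2 and resistant DAUDI means of log2(FPKM + 1), 2 libraries each, for tested genes of 4 lists, without those not reported here; each point is a gene, spread vertically for legibility, filled where the limma adjusted p is below 0.05. Most AKT kinases and activators lie near 0, and TBC1D4 stands apart at 4.52.

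Among 8 tested genes whose proteins were reported to bind TCL1A, ATM was higher and DNMT3B lower in resistant DOHH2 than in resistant DAUDI, and 6 did not pass, with a median of 0.05. ATM, the kinase of DNA break signalling, was at 35.9 and 39.6 FPKM in idelalisib- and ibrutinib-resistant DOHH2 and at 15.2 and 17.1 FPKM in idelalisib- and ibrutinib-resistant DAUDI (difference 1.18, SE 0.14, limma adjusted p = 0.00557). DNMT3B, a DNA methyltransferase, was at 1.14 and 0.757 FPKM in idelalisib- and ibrutinib-resistant DOHH2 and at 3.54 and 4.26 FPKM in idelalisib- and ibrutinib-resistant DAUDI (difference -1.33, SE 0.18, limma adjusted p = 0.00758). FOS and JUN, the AP-1 subunits, spread widely within a line and did not pass (limma, SE 0.80 and 0.82, adjusted p = 0.171 and 0.185). FOS was at 7.94 FPKM in idelalisib-resistant DOHH2, 0.687 FPKM in ibrutinib-resistant DOHH2, and 0.138 and 0.262 FPKM in idelalisib- and ibrutinib-resistant DAUDI. It reached 1 FPKM in 1 resistant library only, so it could be called higher alone. Neither the call of ATM nor that of DNMT3B held in the limma fits without a DOHH2 library, which rest on 1 library of that line. ATM passed only in the 2 of 4 fits that left out a DAUDI library. With the drug as a block 4 passed.

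TCL1A marks stages of B cell life, so stage genes were set beside it. Of 21 B lineage transcription factors, 7 were higher and 4 lower in resistant DOHH2 than in resistant DAUDI, with a median of 0.04. PAX5, which sets B cell identity, did not pass (limma, SE 0.16, adjusted p = 0.0768) and was at 46.6 and 39.7 FPKM in idelalisib- and ibrutinib-resistant DOHH2 and at 28.2 and 33.1 FPKM in idelalisib- and ibrutinib-resistant DAUDI. The largest differences in this list were those of IRF4 (-3.41), ID3 (-3.01), XBP1 (-2.34) and NR4A1 (2.24). Among the resistant libraries IRF4 and PRDM1 reached 1 FPKM in DAUDI only and NR4A1 in DOHH2 only. Each of them could be called in 1 direction alone. NR4A1, an immediate early nuclear receptor, was at 7.32 and 6.54 FPKM in idelalisib- and ibrutinib-resistant DOHH2 and at 0.739 and 0.607 FPKM in idelalisib- and ibrutinib-resistant DAUDI (SE 0.14, limma adjusted p = 0.00114). Without the idelalisib-resistant DOHH2 library 1 factor was higher and 1 lower, and without the ibrutinib-resistant DOHH2 library 1 was higher and 2 lower.

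Of 10 tested genes of naive B cells, 1 was higher (CD24) and 4 lower (IL4R, FCER2, CXCR4 and VPREB3) in resistant DOHH2, with a median of -0.58. IL4R, the interleukin-4 receptor chain, was at 2.76 and 1.42 FPKM in idelalisib- and ibrutinib-resistant DOHH2 and at 96.8 and 106 FPKM in idelalisib- and ibrutinib-resistant DAUDI (difference -5.09, SE 0.24, limma adjusted p = 0.000625). FCER2, the IgE receptor CD23 of mature B cells, was at 0.137 and 0.170 FPKM in idelalisib- and ibrutinib-resistant DOHH2 and at 10.3 and 18.1 FPKM in idelalisib- and ibrutinib-resistant DAUDI (difference -3.67, SE 0.28, limma adjusted p = 0.0018). Unlike TCL1A, FCER2 was also near 0 in labelled parental cells, with 0.144 FPKM in DOHH2 and 0.140 FPKM in DAUDI. The calls of CD24, CXCR4 and VPREB3 did not hold in the fits without a DOHH2 library. FCER2 reached 1 FPKM in resistant DAUDI only, so it could be called lower alone.

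Genes of memory B and plasma cells, in which TCL1A is normally off, made up the last list. Of its 13 names 7 were tested (IRF4, XBP1, CD80, CD86, PRDM1, CD27 and AIM2), and each was lower in resistant DOHH2 than in resistant DAUDI, beside 17.1% of all genes. Among the resistant libraries IRF4, CD80 and PRDM1 reached 1 FPKM in DAUDI only, so they could be called in that direction alone and their count supports nothing. The resistant libraries of both lines held far more CD27 than their labelled parental libraries, but most of this list went the other way. Of 11 measured genes, 1 was higher and 8 lower by 1 or more in each resistant DOHH2 library. In each resistant DAUDI library 2 were higher and 7 lower. Over all genes 14.9% to 20.2% were higher and 14.6% to 15.8% lower in a resistant library. CD27, a memory B cell receptor, was at 66.3 and 65.2 FPKM in idelalisib- and ibrutinib-resistant DOHH2, against 1.495 FPKM in labelled parental DOHH2. In DAUDI it was at 121 and 118 FPKM in idelalisib- and ibrutinib-resistant cells, against 1.10 FPKM in labelled parental cells. XBP1, the plasma cell secretory regulator, was at 68.3 and 74.5 FPKM in idelalisib- and ibrutinib-resistant DOHH2 and at 307 and 431 FPKM in idelalisib- and ibrutinib-resistant DAUDI (SE 0.20, limma adjusted p = 0.00245). IRF4 was at 0.304 and 0.339 FPKM in idelalisib- and ibrutinib-resistant DOHH2 and at 7.06 and 23.5 FPKM in idelalisib- and ibrutinib-resistant DAUDI (SE 0.54, limma adjusted p = 0.0120). Labelled parental cells had 357 FPKM of IRF4 in DOHH2 and 427 FPKM in DAUDI, so labelled parental libraries held IRF4 and TCL1A together at high levels. In the fits without idelalisib- or without ibrutinib-resistant DOHH2 1 of the 7 passed, with 7 and 6 at an unadjusted p below 0.05. Over all lists 35 of 89 tested genes were called, beside 32.5% of all genes tested. The share of all genes fell to 7.74% without idelalisib-resistant DOHH2 and 8.17% without ibrutinib-resistant DOHH2. A fit that leaves out a library rests on 1 library in 1 line, so a pass in it supports nothing. TCL6, TBC1D4, NR4A1 and FCER2 also reached 1 FPKM in the resistant libraries of 1 line only and could be called in 1 direction alone.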

How the data were processed

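PolyA RNA of 6 cultures was measured, 1 library each. Per the submitters' processing notes the reads were handled with bcl2fastq, cutadapt, TopHat2 (hg19) and Cufflinks, with no version named. The authors' deposited values are FPKM per isoform for 43490 isoforms, with lower and upper FPKM bounds. Per the file headers the tables also hold a coverage signal, not scaled to library size, and the isoform length in nt. Absolute depth is unknown.

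FPKM were summed per gene symbol. Left out were 528 isoforms without a name and 10 genes with a failed estimate. Differences are of log2(FPKM + 1), a pseudocount of 1, for 12337 genes at 1 FPKM or more in a library, called at 1 or more, with no test for 1 library against 1. Across the 4 resistant libraries limma 3.58.1 (R 4.3.3) compared the lines with empirical Bayes and trend, two-sided, threshold 0.05 after Benjamini-Hochberg adjustment over 11523 genes. The fit has 2 residual degrees of freedom, and its p-values measure only the spread between the 2 drug-resistant libraries of a line.

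The members and the lists were chosen with earlier results of these data known. Named were the family, AKT1, AKT2, up to 4 genes of a list with the largest differences between the lines, neighbours within 1 Mb and the 8 genes of highest r per member (5 FPKM or more, isoform of 300 nt or more). Names outside this rule (DEPTOR, INPP5D, KEAP1, PAX5, PIK3CD, FOS, JUN, the other genes called in a list and those found by level limits or RMS distance) were chosen after their values were seen. Start positions in the tables count from 0 and are printed counting from 1. Promoters are RefSeq's on GRCh38, matched by symbol (2 of 2 members), and share no coordinates with the hg19 tables. Some genes of the lists are counted but not reported here by name.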

Additional observations from a re-analysis of the deposited data

Results flagged for a closer look

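Of 122 genes looked at (members, lists and neighbours), 3 differed by 1 or more from labelled parental in opposite directions in the 2 lines, in both resistant libraries of each. The share of all genes that did so was not counted, so nothing is read from this count. The difference between the lines in this contrast was not tested, with 1 library a group. The mean difference in DOHH2 minus that in DAUDI, on log2(FPKM + 1), was -2.41 for TCL6, -5.40 for IL4R and 2.88 for NR4A1. Relative to labelled parental, IL4R differed by -2.50 and -3.14 in idelalisib- and ibrutinib-resistant DOHH2 and by 2.51 and 2.65 in idelalisib- and ibrutinib-resistant DAUDI. NR4A1 differed by 1.45 and 1.31 in idelalisib- and ibrutinib-resistant DOHH2 and by -1.44 and -1.55 in idelalisib- and ibrutinib-resistant DAUDI.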

How the results depend on the processing

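Every alternative kept the calls of TCL1A and TCL1B. The differences from labelled parental ranged from -11.9 to -6.29 for TCL1A and -11.8 to -6.14 for TCL1B in DOHH2, and from -0.58 to -0.10 for TCL1A and -5.92 to -4.93 for TCL1B in DAUDI. The midpoint of the deposited bounds was added after seeing the data. Counts over all genes moved by over 1.5 times only with the pseudocount or a library left out, but rescaling by the median of ratios turned the balance of ibrutinib-resistant DAUDI to 1899 higher and 2214 lower, against 2497 and 1804 as deposited. At 0.1, 350 genes differed between the drugs in DOHH2, 817 in DAUDI and 295 between the labelled parental libraries. At 5 these were 70, 177 and 85, and against labelled parental there were 1011 lower and 927 higher in idelalisib-resistant DOHH2, 988 and 853 in ibrutinib-resistant DOHH2, 986 and 839 in idelalisib-resistant DAUDI, and 942 and 1243 in ibrutinib-resistant DAUDI. With limma, 1777 genes were higher and 1970 lower in resistant DOHH2. Leaving out 1 library gave 472 to 1281 higher and 414 to 2041 lower, the lone library assumed to vary like the other line. With fewest calls were the fits without a DOHH2 library: 472 higher and 414 lower without the idelalisib-resistant, 476 and 458 without the ibrutinib-resistant. Pairing the libraries by drug, as a block, gave 1548 and 1833. Of the 8 genes most like a member, 0 were shared by RMS distance or in the 4 resistant libraries alone for either gene, and 1 for TCL1B at a pseudocount of 0.1.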
